A study of Mus musculus with 3 samples.

Results

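Collagen chains were read in the processed signals of 3 Agilent 1-colour microarrays of mouse epididymal fat, 1 array each of SVC, SPA and MA. Every non-control probe whose gene name on the array is Col, a number, a and a number was taken as a member, which gave 44 chains of 27 collagen types on 91 of 56605 probes, or 44 of 37073 genes. All 44 symbols stand in the mouse RefSeq gene table, and that table holds no further symbol of this form. The chains were divided by the structure of the collagen they build into 11 fibrillar chains, 6 chains of the basement membrane network, 2 multiplexins, 9 fibril-associated (FACIT) chains, 6 beaded filament chains, 3 short chain network chains, 4 transmembrane chains and 3 others.

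The fat came from C57/BL male mice aged 20 weeks and was digested with collagenase. A spin at 9 g for 1 s left SVC (stromal vascular cells, the non-adipocyte fraction of fat) in the lower phase. The floating cells were spun at 226 g for 3 min, after which MA (mature adipocytes) floated and SPA (small proliferative adipocytes) were in the sediment. SVC and SPA were then grown in DMEM to 90% confluence, and no culture is described for MA, so culture and fraction cannot be told apart when MA is compared with the others. The labels also carry a different date for MA than for SVC and SPA, which share theirs, so this date and the fraction cannot be told apart either. The labels do not say how many mice each RNA came from. Each group is 1 array, so no test was run, no p-value is given, and the spread between animals is unknown.

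Collagens are secreted proteins of the extracellular matrix in which 3 chains wind around each other into a triple helix. Fibrillar collagens form the banded fibrils of connective tissue. Type IV collagen forms the sheet of basement membranes, which surround each adipocyte and each capillary. Type VI collagen forms beaded filaments close to cells and is known as a major matrix component of fat. FACIT collagens sit on the surface of fibrils.

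The triple helix leaves a mark in the coding sequence, because glycine must return at steps of 3 residues, so that a GGN codon stands at every 9th base. Of the 91 collagen probes, 4 showed this codon at every step along their 60 bases with 6 or more steps, which is 4.4%, against 0.00885% of the 56514 other probes. The probes of Col15a1, Col6a3 and Col5a3 are shown because they were read well above background on all 3 arrays and lie inside the helix itself. They are written 5′ to 3′ on the strand of the gene, with the glycine codons in capitals, and positions are given in mm9 as the array's annotation has them. The Col15a1 probe lies at chr4:47283786-47283845 on the plus strand. The Col6a3 probe spans chr1:92689602-92690594 on the minus strand, and the Col5a3 probe spans chr9:20590066-20590795 on the minus strand, both wider than the 60 bases of a probe.
Col15a1: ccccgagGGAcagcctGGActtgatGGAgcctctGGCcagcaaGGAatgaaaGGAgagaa
Col6a3: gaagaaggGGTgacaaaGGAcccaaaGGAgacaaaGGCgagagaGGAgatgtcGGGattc
Col5a3: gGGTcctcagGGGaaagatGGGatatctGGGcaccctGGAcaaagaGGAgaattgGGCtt
At these helix probes the log2 ratio of MA over SPA was 3.51 for Col15a1, 1.50 for Col6a3 and 1.94 for Col5a3. MA was thus the higher array at all of them.

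A level below is the log2 of the processed signal over the 75th percentile of the same array, and a log2 ratio is a difference of such levels between 2 arrays. Levels are compared between arrays within a chain and not between chains, because probes differ in brightness. For the 30 chains with several probes, the probe of highest mean level over the arrays was used, and 14 chains have 1 probe. Where a probe was well above background on 1 of the 2 arrays, the ratio is a bound and is written as at least. On replicate spots of the same probe the SD of the level was 0.04 to 0.08 for the 2 Col1a1 probes that are spotted many times, which covers the error within an array only.

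SVC had 31 of the 44 chains well above background, SPA had 32 and MA had 39. The number was 29 for all 3 arrays together, and 40 chains passed on 1 array or more. The chains Col9a3, Col10a1, Col19a1 and Col24a1 were not well above background on any array. Col4a4, Col6a4, Col6a5, Col6a6, Col25a1 and Col28a1 were well above background in MA alone. The share of all genes that passed in MA alone was not computed. Among all non-control spots, 58.6% passed this limit on the SVC array. The shares were 61.4% on the SPA array and 61.3% on the MA array. These shares count spots and not genes.

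The labelled cells were checked against marker genes. The adipocyte list (Adipoq, Plin1, Cidec, Lep and Retn) had 5 of 5 genes well above background in MA and in SPA and 3 of 5 in SVC, where Adipoq and Plin1 were not, and its summed signal, in units of the 75th percentile, was 1486 in MA, 15.0 in SPA and 0.637 in SVC. The endothelial list had 6 of 6 genes well above background on each array, with a summed signal of 77.7 in MA, 2.21 in SPA and 1.70 in SVC. Red cell genes were 4 of 4 well above background in MA with a summed signal of 663 and 2 of 4 in the others, with 0.349 in SPA and 0.313 in SVC. The fibroblast and progenitor list had 8 of 8 genes well above background on each array, with 139 in MA, 123 in SPA and 145 in SVC. In such bulk samples, fewer cells of a type and less RNA per cell cannot be told apart.

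The comparison of SPA with SVC asks how the collagen genes of the sedimented adipocyte fraction differ from those of the stromal cells after both were cultured. Most fibrillar chains were lower in SPA, while Col5a3, Col18a1 and Col20a1 were higher. Of the 34 chains with a ratio, 2 were at least 5-fold lower in SPA, where 0.353% of all genes were, and 0 were at least 5-fold higher, where 0.322% of all genes were. At 2-fold, 11 chains were lower in SPA, where 3.25% of all genes were, and 3 were higher, where 3.9% of all genes were. The median log2 ratio of the 29 chains measured on both arrays was -0.17, and that of all genes measured on both was 0.05.

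Among the 8 fibrillar chains measured in both SVC and SPA, 7 were lower in SPA, and the median log2 ratio of the 8 was -1.43. Of the 20698 genes measured on both arrays, 9097 were lower in SPA. Type I collagen, the main collagen of fibrils, is built from Col1a1 and Col1a2. Col1a1 was at 6.85 in SVC, 5.21 in SPA and 5.38 in MA, and Col1a2 was at 8.15, 7.06 and 7.50 in the same order. SVC was the highest array for both, and SPA was 3.1-fold lower for Col1a1 and 2.13-fold lower for Col1a2. Col3a1, whose chain forms type III collagen in the same fibrils, was at 5.54 in SVC, 4.11 in SPA and 6.98 in MA, which is 2.70-fold lower in SPA than in SVC. The type V collagen chains Col5a1 and Col5a2, which help to start fibrils, were 2.53-fold and 3.16-fold lower in SPA than in SVC. Col5a1 was at 4.0, 2.65 and 4.48 and Col5a2 at 0.86, -0.80 and 0.91 in SVC, SPA and MA. SPA was thus the lowest of the 3 arrays for each of these 5 genes at the probe used. Other measured probes of Col1a2, Col3a1 and Col5a2 had MA lowest, as given below.

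Col11a1, a fibrillar chain of cartilage and other tissues, was at -1.44 in SVC, -3.90 in SPA and -4.55 in MA. It was 5.50-fold lower in SPA than in SVC. Its value depended on the reading, since the log2 ratio of SPA over SVC was -2.46 as read and -1.38 after normexp background correction. Without spots of outlying local background another probe of Col11a1 was read, which was not well above background in SPA. The -1.50 it gave is a bound, so SPA was lower by at least that much. The median over the probes, -1.98, takes in this bound. Col5a3, the third type V chain, did the opposite of its partners. It was at 1.29 in SVC, 2.47 in SPA and 5.27 in MA, 2.26-fold higher in SPA than in SVC. Col11a2, partner of Col11a1, stood at -3.79 in SPA, at least 1.80-fold above SVC, where its probe was too dim to be measured.

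The short chain collagens of type VIII, which form lattices under endothelium and other cells, were lower in SPA. Col8a1 was at 4.59 in SVC, 2.22 in SPA and 2.67 in MA, 5.16-fold lower in SPA than in SVC. Col8a2 was at -0.92, -3.11 and -2.79, 4.56-fold lower in SPA. For both chains SVC stood above the other arrays, and SPA and MA lay within 0.45 of each other on the log2 scale. After normexp background correction the log2 ratio of Col8a1 in SPA over SVC was -2.31, which is just under 5-fold. The third chain of this group, Col10a1, was not well above background on any array.

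**Figure D1:**
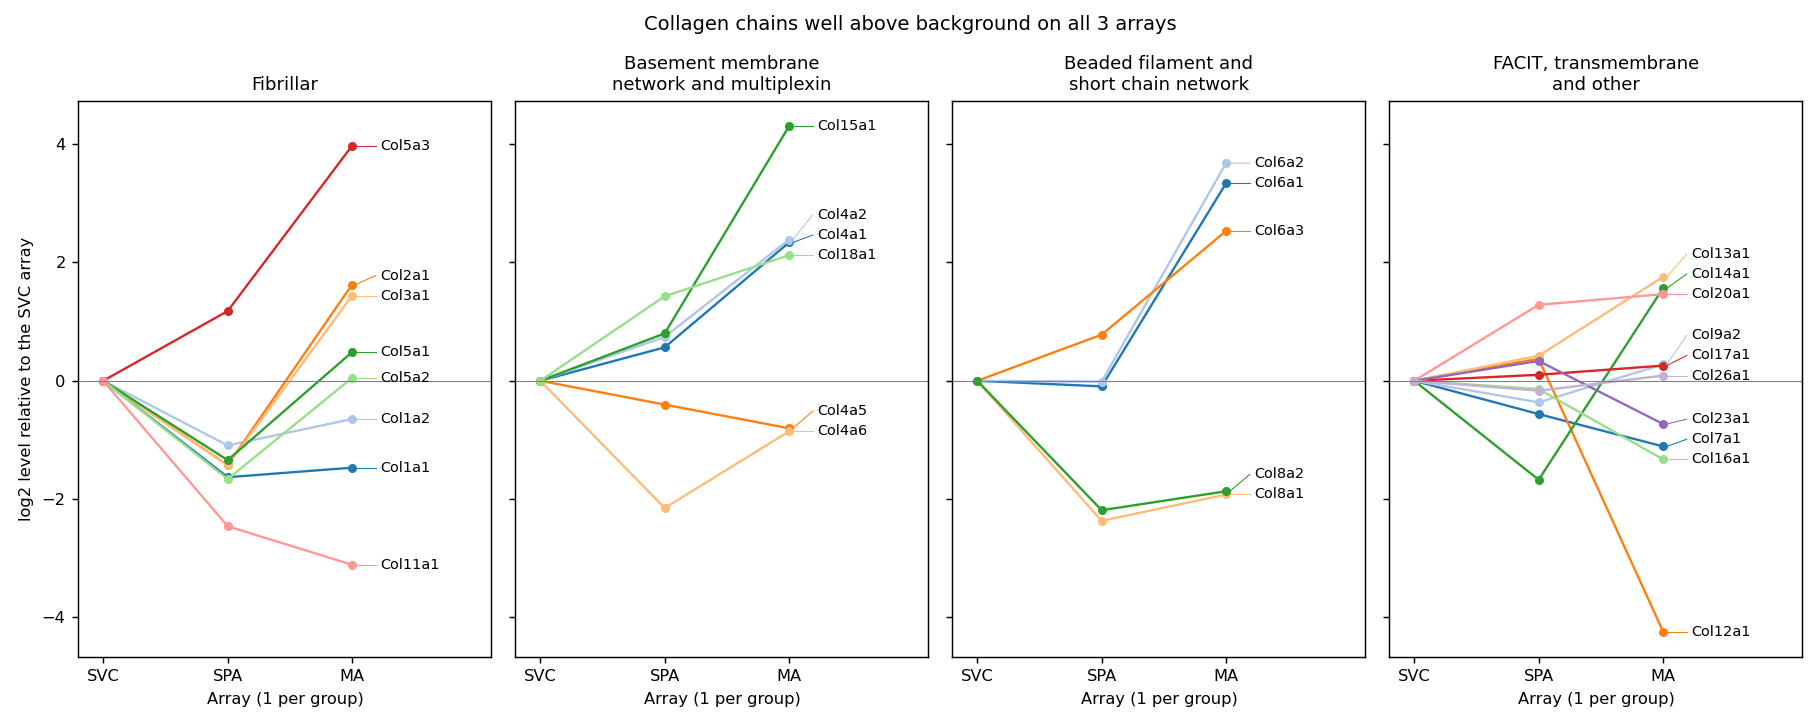
Lines show the log2 level of each of the 29 chains that were well above background on all 3 arrays, relative to the SVC array, with the 3 arrays on the horizontal axis (1 array a group, no error bars) and the chains divided by structure into 4 panels. Fibrillar chains other than Col5a3 lie under the SVC level in SPA, with a median of -1.43 over the 8 fibrillar chains, and Col6a1 and Col6a2 stay level to SPA and stand more than 3 log2 units higher in MA.

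Markers of other cells moved between SVC and SPA as well. The mesothelial list (Msln, Upk3b, Lrrn4, Krt19 and Wt1) had 5 of 5 genes well above background on each array, with a summed signal of 19.1 in SVC, 5.63 in SPA and 19.4 in MA. In SPA 4 of its 5 genes lay 5-fold or more under their SVC level, where 0.353% of all genes did. The smooth muscle and pericyte list had 6 of 6 genes well above background on each array, with a summed signal of 727 in SVC, 329 in SPA and 58.9 in MA. Of its 6 genes, SPA had 3 at least 2-fold lower (Acta2, Tagln and Cnn1) and 1 at least 2-fold higher, Rgs5 at 2.99-fold, with Cspg4 at 1.24-fold higher. The part of these cells in the result was not tested. The fibroblast and progenitor list had 0 of 8 genes at least 2-fold apart between SVC and SPA.

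Upstream sequence is shown for fibrillar genes of both directions, Col1a2, Col3a1 and Col5a1, which were lower in SPA than in SVC, and Col5a3, which was higher. The 250 bases before the start of each gene are taken from RefSeq in GRCm38.p6 and written 5′ to 3′ on the strand of the gene. The last base of each line is next to the start. Capitals mark matches to the letters of the CCAAT box, the GC box GGGCGG and the TATA box (TATAAA), each searched on both strands. Matches were taken at any place in the window, so a match is not by itself a working box. No marked match overlaps another.
Col1a2, chr6:4505368-4505617, plus strand: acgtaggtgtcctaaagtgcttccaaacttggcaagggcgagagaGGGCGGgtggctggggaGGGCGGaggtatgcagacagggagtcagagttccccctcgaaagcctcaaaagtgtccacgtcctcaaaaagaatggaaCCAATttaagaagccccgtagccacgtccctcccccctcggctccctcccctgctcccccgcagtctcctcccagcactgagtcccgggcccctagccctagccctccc
Col3a1, chr1:45311288-45311537, plus strand: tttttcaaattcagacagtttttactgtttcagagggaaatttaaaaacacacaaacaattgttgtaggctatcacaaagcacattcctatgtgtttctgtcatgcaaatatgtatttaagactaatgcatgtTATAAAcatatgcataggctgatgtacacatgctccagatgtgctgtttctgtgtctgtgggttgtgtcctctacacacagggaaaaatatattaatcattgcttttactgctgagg
Col5a1, chr2:27886175-27886424, plus strand: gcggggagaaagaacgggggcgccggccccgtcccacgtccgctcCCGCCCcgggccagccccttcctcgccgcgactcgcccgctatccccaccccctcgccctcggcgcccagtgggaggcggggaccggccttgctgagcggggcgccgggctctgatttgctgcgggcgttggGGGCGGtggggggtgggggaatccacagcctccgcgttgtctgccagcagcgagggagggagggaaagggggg
Col5a3, chr9:20815068-20815317, minus strand: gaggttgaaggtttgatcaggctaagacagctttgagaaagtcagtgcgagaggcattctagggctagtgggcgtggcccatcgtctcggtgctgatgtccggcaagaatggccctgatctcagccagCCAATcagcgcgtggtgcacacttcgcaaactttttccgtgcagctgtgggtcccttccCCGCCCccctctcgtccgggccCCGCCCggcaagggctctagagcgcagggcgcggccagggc
Col1a2 and Col5a3, which differed in direction between SVC and SPA, both held CCAAT once and GGGCGG at 2 places, with GGGCGG on opposite strands. Col5a1 held GGGCGG once on each strand, and Col3a1 held TATAAA alone, 117 to 112 bases before the start.

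The promoter table holds 35 of the 44 chains in 38 windows. CCAAT was found in 13 of these windows (34.2%) and in 33.8% of all 32851 windows, and TATAAA in 5 (13.2%) and in 12.4% of all. GGGCGG was found in 22 of the 38 windows (57.9%) and in 32.7% of all windows. These matches describe the letters in the windows and were not tied to any measured level.

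The comparison of MA with SPA sets the floating mature cells against the cultured adipocyte fraction. Most collagen chains were higher in MA, led by type VI collagen, Col15a1, Col14a1, Col2a1, Col3a1 and Col5a3, and Col12a1 was lower. Of the 40 chains with a ratio, 11 were at least 5-fold higher in MA, where 5.49% of all genes were, and 1 was at least 5-fold lower, where 3.98% of all genes were. Of the 11, 7 were measured on both arrays and 4 were bounds. At 2-fold, 20 chains were higher in MA, where 15.8% of all genes were, and 3 were lower, where 17.9% of all genes were. The median log2 ratio of the 31 chains measured on both arrays was 0.64, against -0.08 for all genes. Of the 31 chains, 24 were above 0, as were 9558 of the 20663 genes measured on both.

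At the probes used, all 6 type VI chains were higher in MA than in SPA. Col6a1 was at 2.88 in SVC, 2.78 in SPA and 6.22 in MA, and Col6a2, its partner in the type VI molecule, at 0.11, 0.09 and 3.79. SVC and SPA were 1.07-fold apart for Col6a1 and 1.01-fold apart for Col6a2, and MA was 10.8-fold higher than SPA for Col6a1 and 12.9-fold higher for Col6a2. These genes are neighbours on chromosome 10. Col6a1 has 1 probe, and its local background was flagged as outlying in SVC and MA. It therefore has no value when such spots are left out. Col6a3, the third and largest chain of the usual molecule, was at 1.82, 2.60 and 4.35, 3.37-fold higher in MA than in SPA. The other probes of Col6a2 and Col6a3 gave the same direction with smaller ratios. Their log2 ratios of MA over SPA were 2.98 and 3.32 for Col6a2, against 3.69 at the probe used. For Col6a3 they were 1.00 and 1.50, against 1.75.

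Col6a4, Col6a5 and Col6a6, which are neighbours on chromosome 9 and can stand in for the third chain, were not well above background in SVC or SPA. Col6a5 was at 2.66 in MA, with measured levels of -5.44 in SVC and -5.57 in SPA, at least 223-fold higher in MA than in SPA. Its other probes gave bounds on the log2 ratio of 5.43 and 3.06. Col6a4 was at -4.92 in SVC, -5.30 in SPA and -2.60 in MA, and Col6a6 at -6.98, -7.21 and -2.73. MA was higher than SPA by at least 5.82-fold for Col6a4 and by at least 5.30-fold for Col6a6. For these last chains the call rested on the background, since the log2 ratio after normexp background correction was 0.90 for Col6a4 and 1.14 for Col6a6. The other probe of Col6a4 was not well above background on any array, at -7.08 in SVC, -7.30 in SPA and -7.30 in MA.

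The fibrillar chains were divided. Col3a1 was 7.32-fold higher in MA than in SPA, Col5a3 6.95-fold, Col5a1 3.55-fold and Col5a2 3.28-fold higher, while Col1a1 and Col1a2 were 1.12-fold and 1.36-fold higher. Col2a1, best known as the collagen of cartilage, was at 1.23 in SVC, -0.20 in SPA and 2.86 in MA, 8.30-fold higher in MA than in SPA, and has 1 probe. The cartilage genes Acan and Matn1 were not well above background on any array, and Comp and Sox9 were 1.69-fold and 3.18-fold lower in MA than in SPA. In MA over SPA, Col2a1 therefore differed in direction from Comp and Sox9, and Acan and Matn1 have no ratio. The summed signal of these cartilage markers was 1.23 in SVC, 0.933 in SPA and 0.334 in MA. Against SVC, Col2a1 was 3.09-fold higher in MA and Comp at least 2.17-fold higher, while Sox9 was 4.70-fold lower. Col11a1 and Col11a2 were 1.57-fold and 1.36-fold lower in MA.

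**Figure D2:**
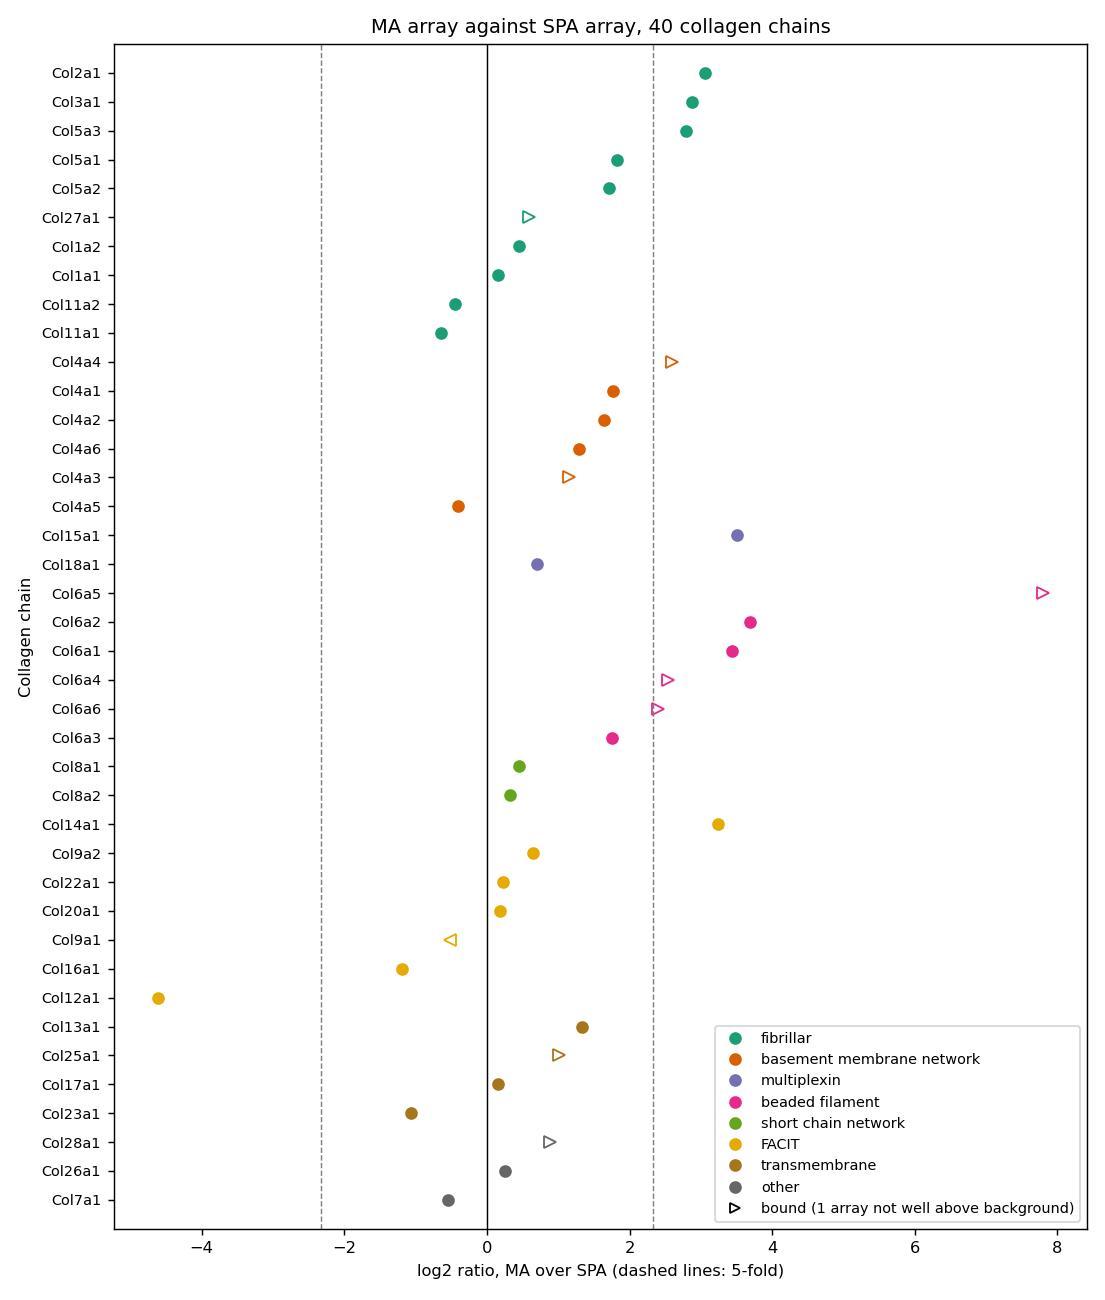
Points show the log2 ratio of the MA array over the SPA array for the 40 chains that passed the background limit on 1 or both arrays, coloured by structure, with open triangles for bounds and dashed lines at 5-fold. The 6 type VI chains all lie at 1.75 or above, with Col6a5 at a bound of 7.80, and Col12a1 lies alone at -4.61.

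Probes of 3 fibrillar genes disagreed over MA. The readings above come from probes annotated to a RefSeq transcript, and the array also holds probes of these genes annotated to none, which lie upstream of the reading probe on the same strand in mm9. For Col1a2, such probes 11.3 kb and 26.2 kb upstream that were well above background gave log2 ratios of MA over SPA of -3.61 and -3.46, against 0.45 at the reading probe. For Col3a1, probes 23.8 kb and 31.8 kb upstream gave -1.90 and -2.26, against 2.87. For Col5a2, a probe 14.7 kb upstream gave -2.43 against 1.71. The direction of these genes in MA over SPA therefore differed by probe, and as the median over its probes Col3a1 was at -1.90.

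The same probes agreed between SVC and SPA. All probes of Col1a2, Col3a1 and Col5a2 that were well above background were lower in SPA than in SVC, with log2 ratios from -2.06 to -1.09, and the probes of a chain were at most 0.63 apart. Over 2435 genes with both kinds of probe, the probe annotated to no transcript differed from the annotated one by a median of -0.07 in MA over SPA, and 4.72% of those genes lay more than 2 log2 units below. Of the 6 collagen chains with both kinds, 3 did. Col1a1, Col6a2 and Col6a3 did not, and their probes of both kinds were higher in MA than in SPA.

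**Figure D3:**
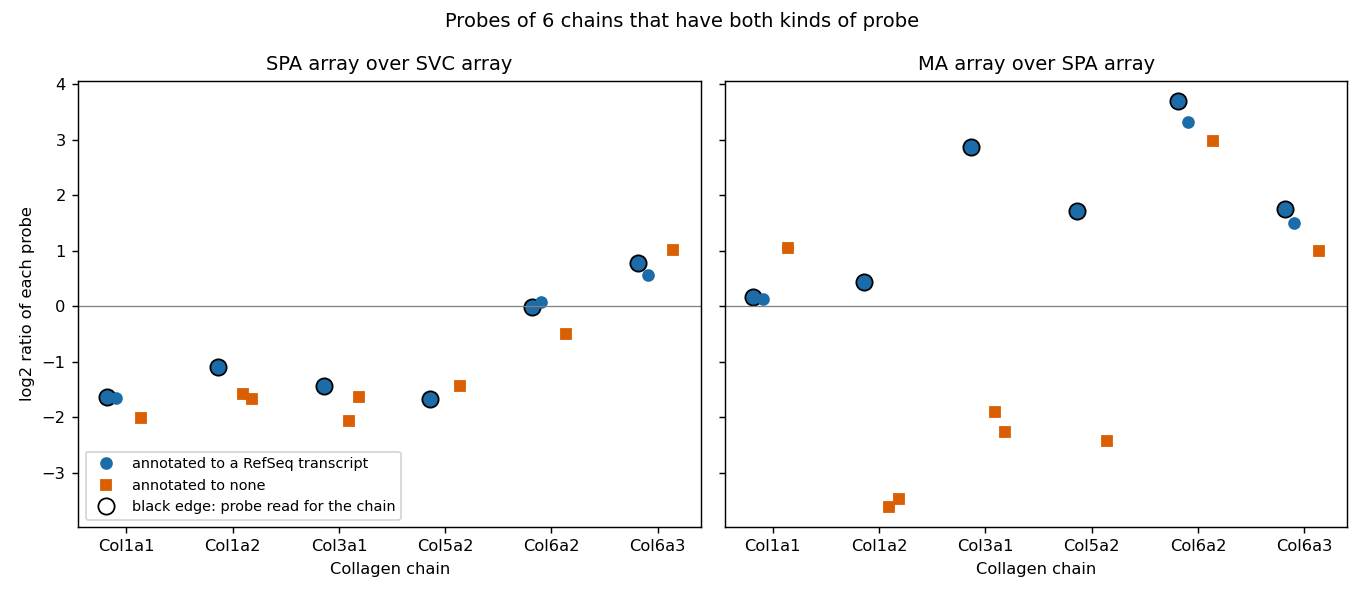
Each point is the log2 ratio of 1 probe that was well above background on both arrays, for the 6 chains with both kinds of probe, with SPA over SVC in the left panel and MA over SPA in the right one. In the left panel the probes of a chain lie within 0.63 of each other, and in the right panel the probes annotated to no RefSeq transcript lie below 0 for Col1a2, Col3a1 and Col5a2.

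The basement membrane collagens were higher in MA for most chains. Col4a1 and Col4a2, which together form the common type IV network, were at 3.25 and 3.13 in SVC, 3.81 and 3.87 in SPA and 5.59 and 5.52 in MA. They increased in the order SVC, SPA, MA, and MA was 3.42-fold and 3.13-fold higher than SPA. These neighbours on chromosome 8 are read in opposite directions, and their RefSeq promoter windows of 300 bases share 78 bases. Col4a5 and Col4a6 are also neighbours in opposite directions, on chromosome X, with 842 bases between their windows. Col4a5 was at 0.64, 0.24 and -0.17 in SVC, SPA and MA, and Col4a6 at -0.27, -2.42 and -1.12. Col4a6 was 4.44-fold lower in SPA than in SVC, and Col4a5 was 1.32-fold lower, whereas Col4a1 and Col4a2 were 1.48-fold and 1.67-fold higher.

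Col4a3 and Col4a4, the chains known from the kidney filter, were near the background. Col4a3 was at -4.17 in SVC and -3.98 in MA and was not well above background in SPA. Col4a4 was at -2.54 in MA, at least 6.06-fold higher than in SPA, and this bound was 1.02 on the log2 scale after normexp background correction.

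The multiplexins, which lie in basement membranes and carry the endostatin domain at their end, were higher at each step from SVC to SPA to MA. Col15a1 was at -3.13 in SVC, -2.33 in SPA and 1.17 in MA, 11.4-fold higher in MA than in SPA. Col18a1 was at 1.87, 3.30 and 4.0. SPA was 2.69-fold above SVC, and MA 1.62-fold above SPA. Its larger step was thus between SVC and SPA, and that of Col15a1 between SPA and MA. Of 8 other genes of the basement membrane (laminins, nidogens and perlecan), 4 were at least 2-fold higher in MA than in SPA and 0 lower, where 15.8% and 17.9% of all genes were. Between SVC and SPA 1 was at least 2-fold higher in SPA and 1 lower, with a median log2 ratio of 0.01. For MA over SPA, Nid2 was the one past 5-fold, at 0.59 in SVC, -0.84 in SPA and 2.62 in MA.

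Among the FACIT chains, Col14a1 and Col12a1, which both coat type I fibrils, differed in direction between SPA and MA. Col14a1 was at -2.17 in SVC, -3.84 in SPA and -0.60 in MA, 9.44-fold higher in MA than in SPA. This was a log2 ratio of 3.24, and 1.98 after normexp background correction, which is below 5-fold. Col12a1 was at 0.96 in SVC, 1.34 in SPA and -3.28 in MA, 24.5-fold lower in MA than in SPA. Its second measured probe gave a log2 ratio of -3.26. The local background of the probe used was flagged as outlying in SPA, and when such spots are left out the second probe is the one read. Col16a1 was at 3.82, 3.68 and 2.49, 2.28-fold lower in MA than in SPA. Col20a1 was at -3.92, -2.64 and -2.45, and Col9a2 and Col22a1 were 1.56-fold and 1.17-fold higher in MA than in SPA. Col9a1, well above background in SPA alone, was at least 1.43-fold lower in MA.

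The transmembrane collagens are anchored in the cell surface by their own membrane span. Col13a1 was at -3.17 in SVC, -2.75 in SPA and -1.42 in MA, and Col23a1 at -2.71, -2.37 and -3.44. MA was thus the highest array for Col13a1 and the lowest for Col23a1. Col17a1, the collagen of hemidesmosomes, was at -3.07, -2.97 and -2.81, and Col25a1 was well above background in MA alone at -4.13. Of the remaining chains, Col7a1, which forms anchoring fibrils, was at -0.46, -1.02 and -1.57.

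Markers of other cells stood beside the chains that were higher in MA. All 6 endothelial genes were at least 5-fold higher in MA than in SPA, where 5.49% of all genes were. Their log2 ratios ran from 2.74 for Pecam1 to 6.93 for Cldn5, and endothelium is known as a source of type IV, XV and XVIII collagen in tissue. Of the mesothelial genes, 4 of 5 were at least 5-fold higher in MA, and of the fibroblast and progenitor genes 3 of 8 were (Cd34, Dpt and Pi16), while Pdgfra was 4.14-fold lower. Of the smooth muscle and pericyte genes, Rgs5 and Cspg4 were 40.2-fold and 6.60-fold higher, and Acta2 and Tagln 6.48-fold and 8.58-fold lower. The Schwann list had 5 of 5 genes well above background in SVC and SPA and 4 of 5 in MA, with a summed signal of 0.395, 0.955 and 3.1, and the macrophage list 5, 4 and 5 of its 5 genes, with 95.3, 137 and 52.4. The part of these cells in the collagen values was not tested.

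Against SVC, MA gave 10 of 39 chains at least 5-fold higher, where 5.74% of all genes were, and 2 at least 5-fold lower, where 3.97% of all genes were. The 10 were Col4a1, Col4a2, Col4a4, Col5a3, Col15a1 and 5 type VI chains, and the 2 lower ones were Col11a1 and Col12a1. The largest folds among chains measured on both arrays were 19.8-fold for Col15a1 and 15.7-fold for Col5a3, both higher in MA, and 18.9-fold for Col12a1, lower in MA. Col4a1, Col4a4, Col6a3, Col6a4 and Col11a1 came to under 5-fold in at least 1 alternative. After normexp background correction the bound on the log2 ratio was 0.97 for Col4a4 and 0.88 for Col6a4. At 2-fold, 17 chains were higher, where 17.3% of all genes were, and 7 were lower, where 18% of all genes were. Col1a1 was 2.77-fold lower in MA than in SVC. Col3a1 was 2.71-fold higher at its reading probe, a log2 ratio of 1.44, and its other measured probes gave -3.89 and -3.97. The comparisons with MA share that array, and those with SPA share that one.

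Over the 29 chains measured on all 3 arrays, SPA was the lowest array for 14 and the highest for 2, Col12a1 and Col23a1. The shares of all genes with these orders were not computed. Col6a1 and Col6a2 are among the 14, at 1.07-fold and 1.01-fold under SVC. Another probe of Col6a2 gave a log2 ratio of SPA over SVC of 0.08. For 6 of the 14 both steps were at least 2-fold, and these were Col2a1, Col3a1, Col4a6, Col5a1, Col5a2 and Col14a1. These orders hold for the reading probes. At the other measured probes of Col1a2, Col3a1 and Col5a2, MA and not SPA was the lowest array. The level increased from SVC to SPA to MA for 9 chains, Col4a1, Col4a2, Col5a3, Col6a3, Col13a1, Col15a1, Col17a1, Col18a1 and Col20a1. It decreased in that order for Col4a5, Col7a1, Col11a1 and Col16a1.

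Collagen chains are hydroxylated, folded and glycosylated in the endoplasmic reticulum, and of 20 such enzymes and chaperones on the array 7 were at least 2-fold lower and 2 at least 2-fold higher in MA than in SPA, where 17.9% and 15.8% of all genes were. The median of their log2 ratios was -0.79, against -0.07 for all genes with bounds included. P4ha1, a prolyl hydroxylase subunit, was at 1.15 in SVC, 0.97 in SPA and -1.09 in MA, and Plod2, a lysyl hydroxylase, at 1.78, 1.08 and -0.92. Both were lowest in MA. P3h2, a prolyl hydroxylase that acts on basement membrane collagen, was 5.75-fold higher in MA than in SPA, at -4.00, -3.77 and -1.25. Colgalt2, a galactosyltransferase, was well above background in MA alone and at least 5.17-fold higher. Serpinh1, the collagen chaperone HSP47, was at 6.27, 5.23 and 5.25, so that SPA and MA lay within 0.03 of each other.

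Of the 8 genes that trim or help to trim the propeptides, 2 were at least 2-fold lower in MA than in SPA, Pcolce and Pcolce2, and 0 were higher, where 17.9% and 15.8% of all genes were. Lox, the lysyl oxidase that cross-links fibrils, was at 6.15 in SVC, 5.77 in SPA and 1.66 in MA, 17.2-fold lower in MA than in SPA. It was the 1 of 5 genes of its list that was at least 2-fold apart between them, with Loxl3 just under that size. Of the 11 fibril partners, 5 were at least 2-fold higher in MA and 3 at least 2-fold lower, beside 15.8% and 17.9% of all genes. The small proteoglycans Lum and Fmod, which bind fibrils, were 27.2-fold and 17.9-fold higher in MA than in SPA. Lum was at 0.62, -0.96 and 3.80 and Fmod at -2.60, -3.88 and 0.28, so both were lowest in SPA. Sparc, a collagen-binding glycoprotein, was at 9.21, 9.03 and 9.62.

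**Figure D4:**
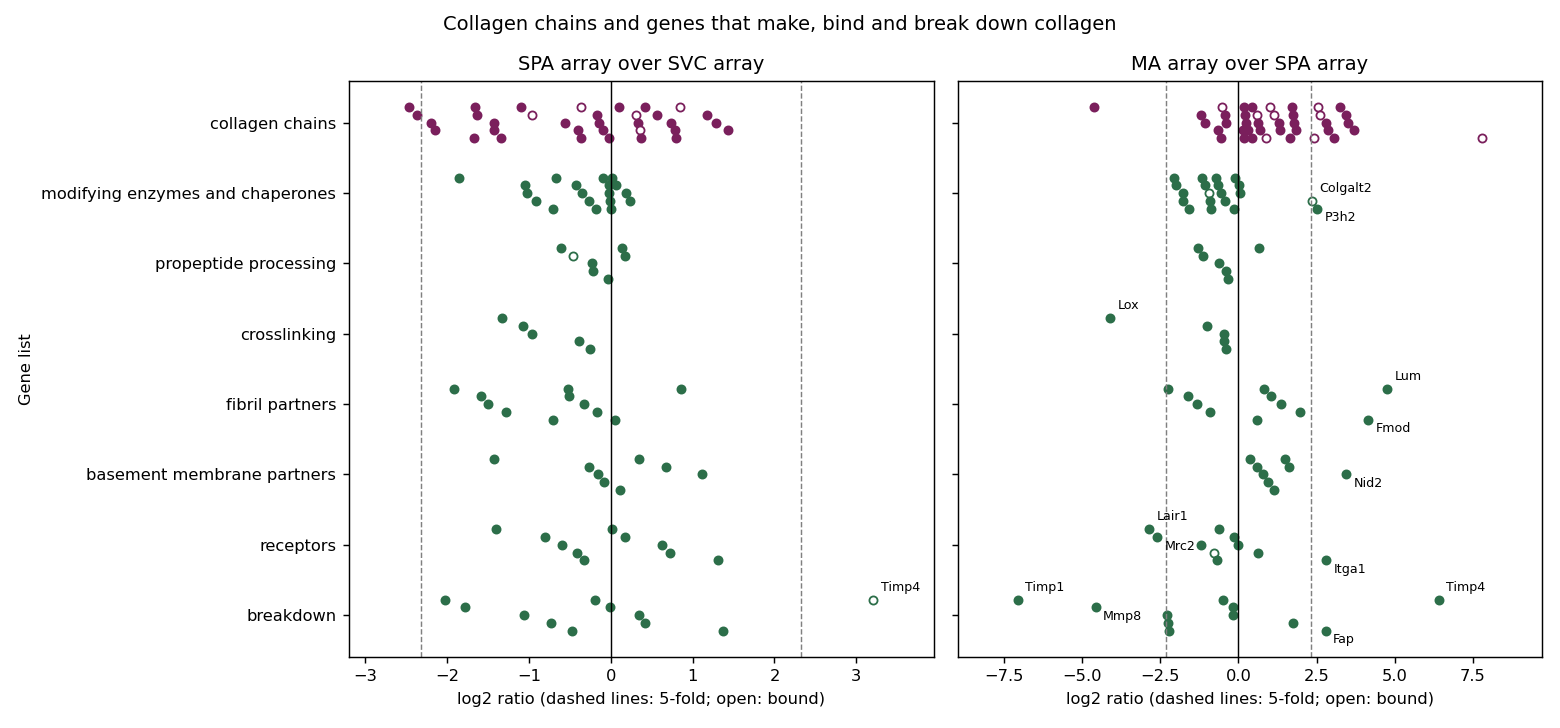
Points show the log2 ratio of each gene in the collagen chains and in the 7 lists of genes that make, bind and break down collagen, with SPA over SVC on the left and MA over SPA on the right, open points for bounds, dashed lines at 5-fold and names for list genes past it. Between MA and SPA most modifying enzymes lie below 0, with a median of -0.79, where the collagen chains measured on both arrays have a median of 0.64.

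Of the 10 receptors, 1 was at least 2-fold higher and 3 were at least 2-fold lower in MA than in SPA, which with so few genes lies near the 15.8% and 17.9% of all genes. Itga1, an integrin subunit that binds type IV collagen, was 7.01-fold higher in MA, while the collagen uptake receptor Mrc2 and the inhibitory receptor Lair1 were 6.05-fold and 7.23-fold lower. Ddr2, a receptor kinase for fibrillar collagen, was at 1.27 in SVC, 2.58 in SPA and 1.38 in MA, highest in SPA. Of the 12 genes of breakdown, 3 were at least 2-fold higher and 5 at least 2-fold lower in MA, beside 15.8% and 17.9% of all genes. The collagenase Mmp8 was 23.8-fold lower in MA than in SPA and Mmp14, which cuts fibrils at the cell surface, was 4.87-fold lower, while Mmp2 was at 2.29, 2.11 and 1.94. Fap, a membrane protease of activated fibroblasts, was at -0.08, -1.14 and 1.65, 6.90-fold higher in MA than in SPA. The protease inhibitors Timp1 and Timp4 lay far apart, with Timp1 133-fold lower in MA than in SPA and Timp4 86.0-fold higher.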

How the data were processed

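RNA (50 ng) was labelled with Cy3 and hybridised to 3 arrays on 1 slide, read in 1 scan. The deposited intensity per spot is the processed signal of Agilent Feature Extraction 10.7.3.1, background-subtracted and detrended by the authors. The deposited value table holds, as a ratio to 1 constant per array, the same signal (largest relative departure 1.37e-06). Control spots and spots flagged as outliers were left out, signals were scaled to the 75th percentile of each array (430 in SVC, 439 in SPA, 366 in MA), and spots of a probe were averaged as log2 values (Python 3.11.15, pandas 2.3.3, and limma 3.58.1 in R 4.3.3 for normexp with offset 50). No collagen spot was saturated. For the dim array, bounds used the probe's own level or the lowest signal well above background on that array, whichever was higher. The 5-fold size is that of the study. Of the 91 probes, 69 had an accession in the RefSeq table, all with the same symbol. All 44 chains could be named. Those at least 5-fold apart and those of types I, III, IV, V, VI, XV and XVIII were named with values, and at most 4 genes a list by size beside Serpinh1, Lox, Sparc, Mmp2, Mmp14 and Ddr2. Members and lists were chosen with earlier results of these data known. The calculation was tested on simulated data. Per the labels no group has a second array, whose number limits the precision, and results were recomputed under 10 other settings, 1 of them chosen after seeing the data.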

Additional observations from a re-analysis of the deposited data

How the results depend on the processing

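The 71 log2 ratios of named chains were recomputed under 10 alternatives, 1 of them (the median over RefSeq-annotated probes) chosen after seeing the data. Of 696 such values, 685 had the same sign as the main one, and 10 of the 11 others belonged to ratios under 5-fold. Part of this agreement was fixed in advance, because the deposited value table holds the same signal. For a bright chain with 1 probe, the settings on probe choice and on dim probes also return the main value. Of 251 values of ratios past 5-fold, 226 stayed past it and 24 did not. The one that changed sign was Col3a1 in MA over SPA, at -1.90 as the median over its probes. No paired analysis was possible because each group has 1 array.

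Chains at least 5-fold higher in MA than in SPA numbered 7 after normexp background correction and 7 over probes well above background on both arrays, instead of 11. Chains at least 5-fold lower in MA than in SPA numbered 2 with the median over probes and 3 with the probe of the largest ratio, instead of 1, and those at least 2-fold lower 5 and 5, instead of 3. Against SVC, chains at least 5-fold lower in MA numbered 5 with the probe of the largest ratio and 1 after normexp, without spots of outlying local background, or with the median over RefSeq-annotated probes, instead of 2, and those at least 2-fold lower 11 with the probe of the largest ratio, instead of 7. Chains at least 5-fold lower in SPA than in SVC numbered 0 after normexp and 1 with the median over probes, with that over RefSeq-annotated probes, or without spots of outlying local background, instead of 2.

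The median log2 ratio of MA over SPA was 0.45 after normexp, 0.72 with the percentile taken over probes that passed the background limit everywhere, 0.79 after quantile normalization, 0.80 with the median over probes, 0.94 without a filter on dim probes, 0.95 with the median over RefSeq-annotated probes and 1.03 with the probe of the largest ratio. That of MA over SVC was 0.17 after quantile normalization, 0.18 after normexp, 0.55 with the median over probes and without the filter, 0.58 with the probe of the largest ratio and 0.67 with the median over RefSeq-annotated probes. That of SPA over SVC was -0.27 with the probe of the largest ratio and after quantile normalization, and -0.25 without spots of outlying local background. The cause was not tested. A typical signal was 2.20 to 2.33 times the local background, which limits what can be read of dim chains.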
